A study of Mus musculus with 2 samples.

Results

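The genes described here are 10 immediate early transcription factor genes of the mouse uterus: Fos, Fosb, Fosl2, Jun, Junb, Jund, Egr1, Atf3, Nr4a1 and Ier2. They were chosen by symbol, with earlier results of these data known, and make up 10 of the 32285 genes listed for both libraries. Whole uteri of mice aged 6 months were digested with collagenase and DNase, and the cells were profiled by droplet sequencing of RNA 3′ ends. The control library came from Prickle1 f/f mice, which carry floxed alleles of Prickle1, a planar cell polarity gene. The conditional knockout library, called cKO below, came from Prickle1 f/f Ltf-cre mice, which carry the same floxed alleles and a Cre recombinase driven by Ltf, a gene of the uterine epithelium. Each library was a pool of 3 mice, so there is 1 library per group and no replicate. A separate genotype entry in the labels names both samples C57BL/6J wild-type, which differs from their titles, and the titles were followed. Genotype, animals, digestion and library preparation cannot be told apart, no difference below has a test, and all intervals cover counting error only.

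Immediate early genes are transcribed within minutes of a stimulus, without new protein synthesis, by factors such as SRF and CREB that already sit in the cell. Fos and Jun family proteins pair to form AP-1, a transcription factor that carries growth, stretch and stress signals to its target genes. In the uterus these genes are known for their response to oestrogen in the epithelium and to stretch and contraction in the muscle wall, and they are also known to be switched on while a tissue is being dissociated into cells.

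The control library held 45035801 UMIs, which are counts of single RNA molecules, and the cKO library 57145553. A barcode counted as a cell if it held 500 genes or more and no more than 20% mitochondrial UMIs, which left 3653 in control and 4950 in cKO, with medians of 4650 and 5944 UMIs. Only 5 cell barcodes occurred in both libraries. A cell was put in a class when it held a UMI of exactly 1 class gene: Epcam for epithelial, Pdgfra for stromal, Actg2 for muscle, C1qa for macrophage, Flt3 for dendritic, and Cd3e or Ncr1 for lymphoid cells. This placed 2298 control and 2805 cKO cells, while 1185 and 1896 held no class gene and 170 and 249 held genes of several classes. Every placed cell of at least 1000 UMIs was thinned at random to 1000 UMIs, so that both libraries are read at the same depth, and levels are counts per 1000000 UMIs (CPM) over the thinned cells of a class. Because 1 random draw can be far from the average draw, the expected thinned counts, which scale each cell to 1000 UMIs with no draw, were computed after the values were seen and are given where they move a result. Prickle1 itself had 15 UMIs in control and 16 in cKO epithelial cells before thinning, 0.865 CPM (95% interval 0.484 to 1.43) and 3.93 CPM (2.24 to 6.38). Over all cells it was at 2.65 CPM (2.16 to 3.23) in control and 8.24 CPM (7.49 to 9.05) in cKO, and in stromal cells at 3.84 CPM (2.61 to 5.45) and 9.13 CPM (7.996 to 10.4). Prickle1 was thus higher in cKO with intervals apart in all 3 of these, which is not the direction of a loss. In muscle cells Prickle1 was at 12.3 CPM (5.61 to 23.3) in control and 13.2 CPM (8.16 to 20.1) in cKO, with overlapping intervals. Counts at the 3′ end cannot report whether an internal exon is gone, so this gene does not check the labels, and cKO below means the library so labelled.

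The promoters of 8 of the 10 members were found in RefSeq on GRCm38.p6, and Egr1 and Ier2 were not matched in the promoter table used here. The 150 bases upstream of the start site are shown for Fos, Fosb, Atf3 and Nr4a1, the members with an entry that were at least 2-fold lower in cKO muscle cells as gated above, and for Junb, which was not. Capitals mark TGACG, the core of the cAMP response element bound by CREB and ATF factors, GCGNGGGCG, the site of EGR factors, and TATAAA, each on either strand.
Fos, chr12:85473740-85473889, plus strand: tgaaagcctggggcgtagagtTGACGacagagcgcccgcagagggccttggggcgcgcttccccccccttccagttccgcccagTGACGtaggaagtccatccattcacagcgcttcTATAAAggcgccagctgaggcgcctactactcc
Fosb, chr7:19310046-19310195, minus strand: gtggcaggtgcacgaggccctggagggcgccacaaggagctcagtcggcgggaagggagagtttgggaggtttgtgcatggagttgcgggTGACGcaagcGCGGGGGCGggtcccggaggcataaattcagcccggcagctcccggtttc
Atf3, chr1:191183334-191183483, minus strand: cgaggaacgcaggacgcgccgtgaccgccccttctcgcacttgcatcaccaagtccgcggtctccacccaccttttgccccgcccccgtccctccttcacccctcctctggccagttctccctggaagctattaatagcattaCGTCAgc
Nr4a1, chr15:101266696-101266845, plus strand: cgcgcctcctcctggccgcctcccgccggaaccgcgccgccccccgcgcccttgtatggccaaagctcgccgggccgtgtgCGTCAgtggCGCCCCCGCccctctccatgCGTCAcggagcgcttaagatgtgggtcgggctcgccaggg
Junb, chr8:84978749-84978898, minus strand: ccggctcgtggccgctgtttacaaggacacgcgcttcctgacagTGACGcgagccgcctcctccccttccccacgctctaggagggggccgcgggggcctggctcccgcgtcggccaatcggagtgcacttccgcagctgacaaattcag

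The windows of Atf3, Nr4a1 and Fosl2 lie inside the GENCODE spans of their genes, which also have starts farther upstream, and the window of Fosb overlaps the annotated start of its gene by a few bases. The window of Jund ends well upstream of the GENCODE start of its gene, so it does not cover the bases next to that start. Over 250 bases upstream, TGACG was present in 5 of the 8 member promoters, those of Fos, Fosb, Junb, Atf3 and Nr4a1, against 17.8% of 32851 mouse promoters. The EGR letters were present in 3 member promoters, those of Fosb, Fosl2 and Nr4a1, against 4.70% of all, and TATAAA in that of Fos alone, against 12.4%. The full cAMP element TGACGTCA (1.55% of all), the AP-1 site TGANTCA (6.75%) and the CArG box of SRF (1.47%) had no match in the 8 windows. TGACG was thus present both in the 4 promoters of the members that were lower in muscle and in that of Junb, which was level there as gated above. It had no match in the windows of Fosl2, Jun and Jund, which were not 2-fold lower in muscle either. The motifs do not overlap each other in these windows, and a match is a description of letters, not of a bound site.

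All 10 members were detected in both libraries, and their order of classes varied, with Fosb and Egr1 sharing 1 order in control and 1 in cKO. In control, Fos, Fosb and Egr1 were highest in muscle cells, Jun, Junb, Jund, Atf3 and Ier2 in epithelial cells, Nr4a1 in stromal cells and Fosl2 in lymphoid cells. In cKO, 3 members kept their highest class, Jun and Atf3 in epithelial and Fosl2 in lymphoid cells. Fos and Nr4a1 were now highest in epithelial cells, Fosb and Egr1 in stromal cells, Jund in macrophage cells, Junb in dendritic cells and Ier2 in lymphoid cells. Several of these ranks depended on the gate: with class genes read in thinned counts, an alternative described with the muscle cells, control Fos (645 CPM), Fosb (425 CPM) and Egr1 (1144 CPM) were highest in stromal cells. By that gate cKO Fos was highest in macrophage, Nr4a1 in stromal, and Fosb and Jund in epithelial cells. Junb was then highest in dendritic cells of control (1438 CPM) and in macrophage cells of cKO (2156 CPM). In the expected thinned counts Junb was highest in these same classes, at 1504 and 1951 CPM. Jun and Atf3 in epithelial and Fosl2 in lymphoid cells were highest by both gates in both libraries. Atf3 ran from 503 CPM in epithelial to 6.54 CPM in lymphoid cells of control, a 77.0-fold range that rests on 1 lymphoid UMI. Fosb and Egr1 had no UMI in the thinned control dendritic cells, so no range in control is given for them. Of the other 8, the range in control was narrowest for Junb, from 1430 CPM in epithelial to 513 CPM in muscle cells of control, a 2.79-fold range. Neighbouring classes often did not differ beyond their intervals: in control, the levels of Fosb in muscle (475 CPM) and stromal (405 CPM) cells overlapped, as did those of Egr1 in muscle (1321 CPM) and stromal (1207 CPM) cells.

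**Figure D1:**
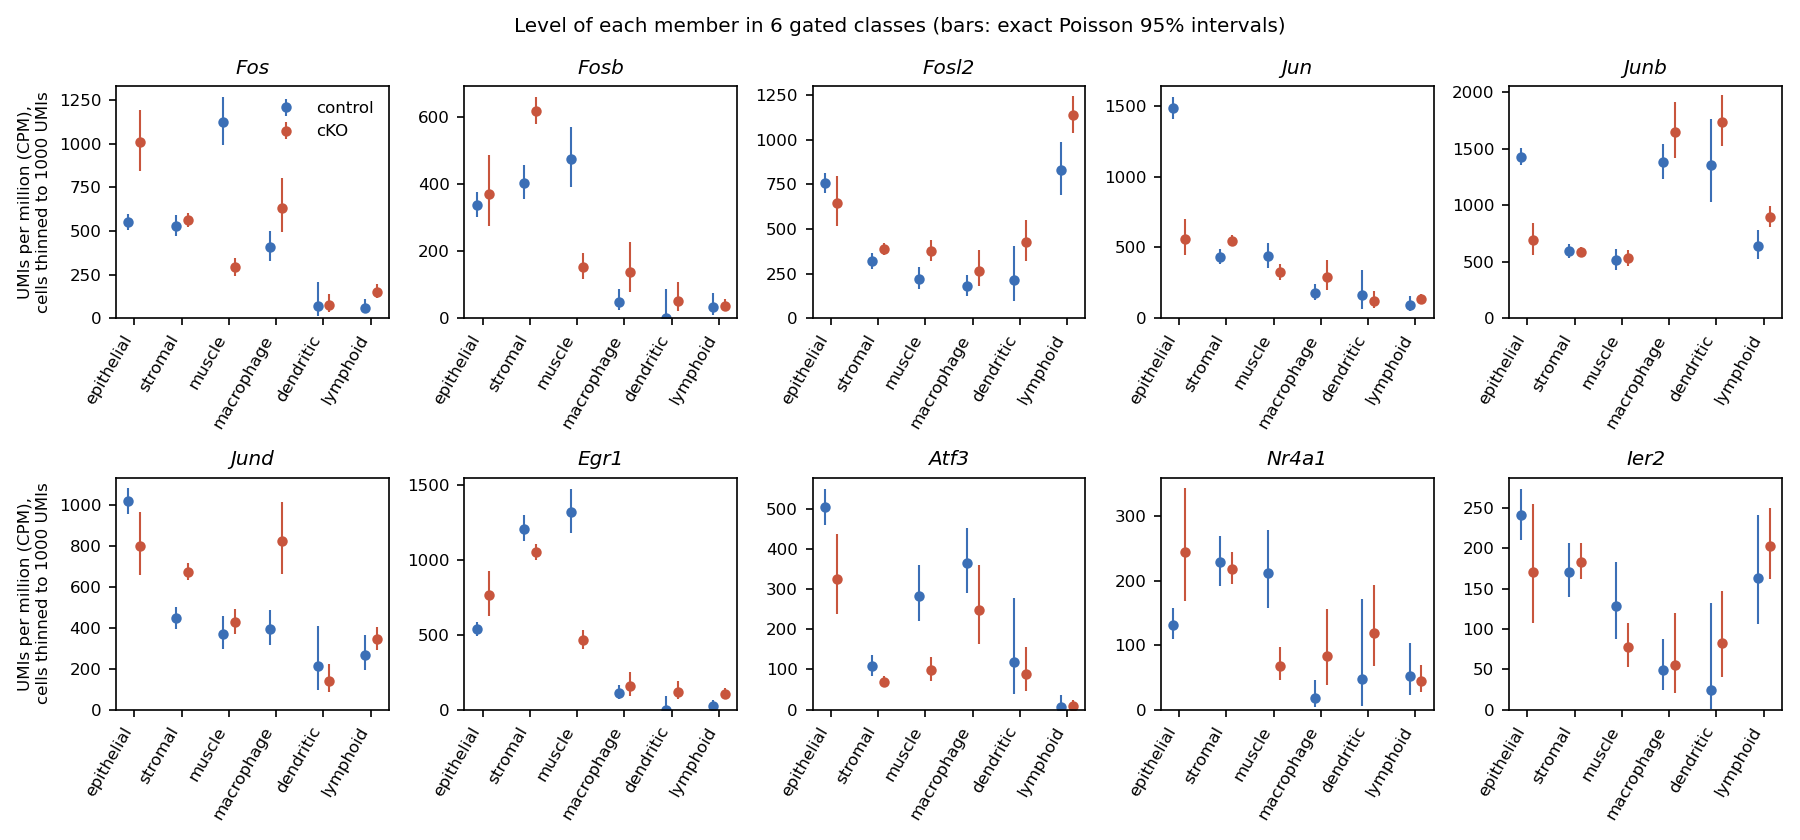
Level of each of the 10 members, in CPM over cells thinned to 1000 UMIs, in 6 classes of control (blue) and cKO (red) cells; bars are exact Poisson 95% intervals and the vertical axes differ between genes. Fos and Egr1 stand at 1125 and 1321 CPM in control muscle cells and at 290 and 465 CPM in cKO muscle cells, while Jun stands at 1487 CPM in control and 563 CPM in cKO epithelial cells.

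In muscle cells several members were much lower in cKO. Of the 10 members, 5 were at least 2-fold lower in the 441 cKO than in the 240 control cells and none was at least 2-fold higher, where 2.82% of 3328 genes at 50 CPM or more were lower and 6.37% higher. The median log2 ratio of cKO to control was -1.13 over the 10 members and 0.17 over all those genes. When ratios were centred on that median, 56.1% of all genes past 2-fold were lower in place of 30.7%, and the same number of members, 5, was past it. The same 5 were past 2-fold in the expected thinned counts, with a median of -0.96. Allowing cells with genes of several classes left 3 of them past it (Fos, Egr1 and Atf3), and a gate of 2 UMIs left Fos, Fosb and Atf3, with a median of -0.43.

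Fos, the partner of Jun proteins in AP-1, had 1125 CPM (995 to 1268) in control and 290 CPM (242 to 345) in cKO muscle cells. The intervals did not overlap, and the cKO level was 3.88-fold lower (3.13 to 4.82). Fosb, a close relative of Fos, had 475 CPM (392 to 571) and 152 CPM (118 to 193), 3.13-fold lower (2.29 to 4.29). Egr1, a zinc finger factor induced through SRF, had 1321 CPM (1179 to 1474) and 465 CPM (403 to 533), 2.84-fold lower (2.38 to 3.40). Atf3, a stress-induced factor of the ATF family, had 283 CPM (220 to 359) and 97.5 CPM (70.6 to 131), 2.91-fold lower (1.95 to 4.36). Nr4a1, an orphan nuclear receptor, had 213 CPM (158 to 279) and 68.0 CPM (45.9 to 97.1), 3.12-fold lower (1.95 to 5.08). The control interval lay above the cKO interval for each of these 5 genes.

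The Jun family differed less in muscle cells. Jun had 438 CPM (358 to 530) in control and 324 CPM (273 to 382) in cKO, with overlapping intervals and a ratio interval of 1.04 to 1.75-fold lower. Junb had 513 and 528 CPM and Jund 371 and 426 CPM, and neither ratio differed from 1 beyond its interval. Fosl2, which encodes the Fos relative Fra-2, went the other way, with 221 CPM (165 to 289) in control against 379 CPM (323 to 441) in cKO muscle cells and a log2 ratio of 0.78 (0.32 to 1.25). Ier2, a small nuclear protein of the immediate early response, had 129 and 77.1 CPM, with a ratio interval that spanned 1.

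**Figure D2:**
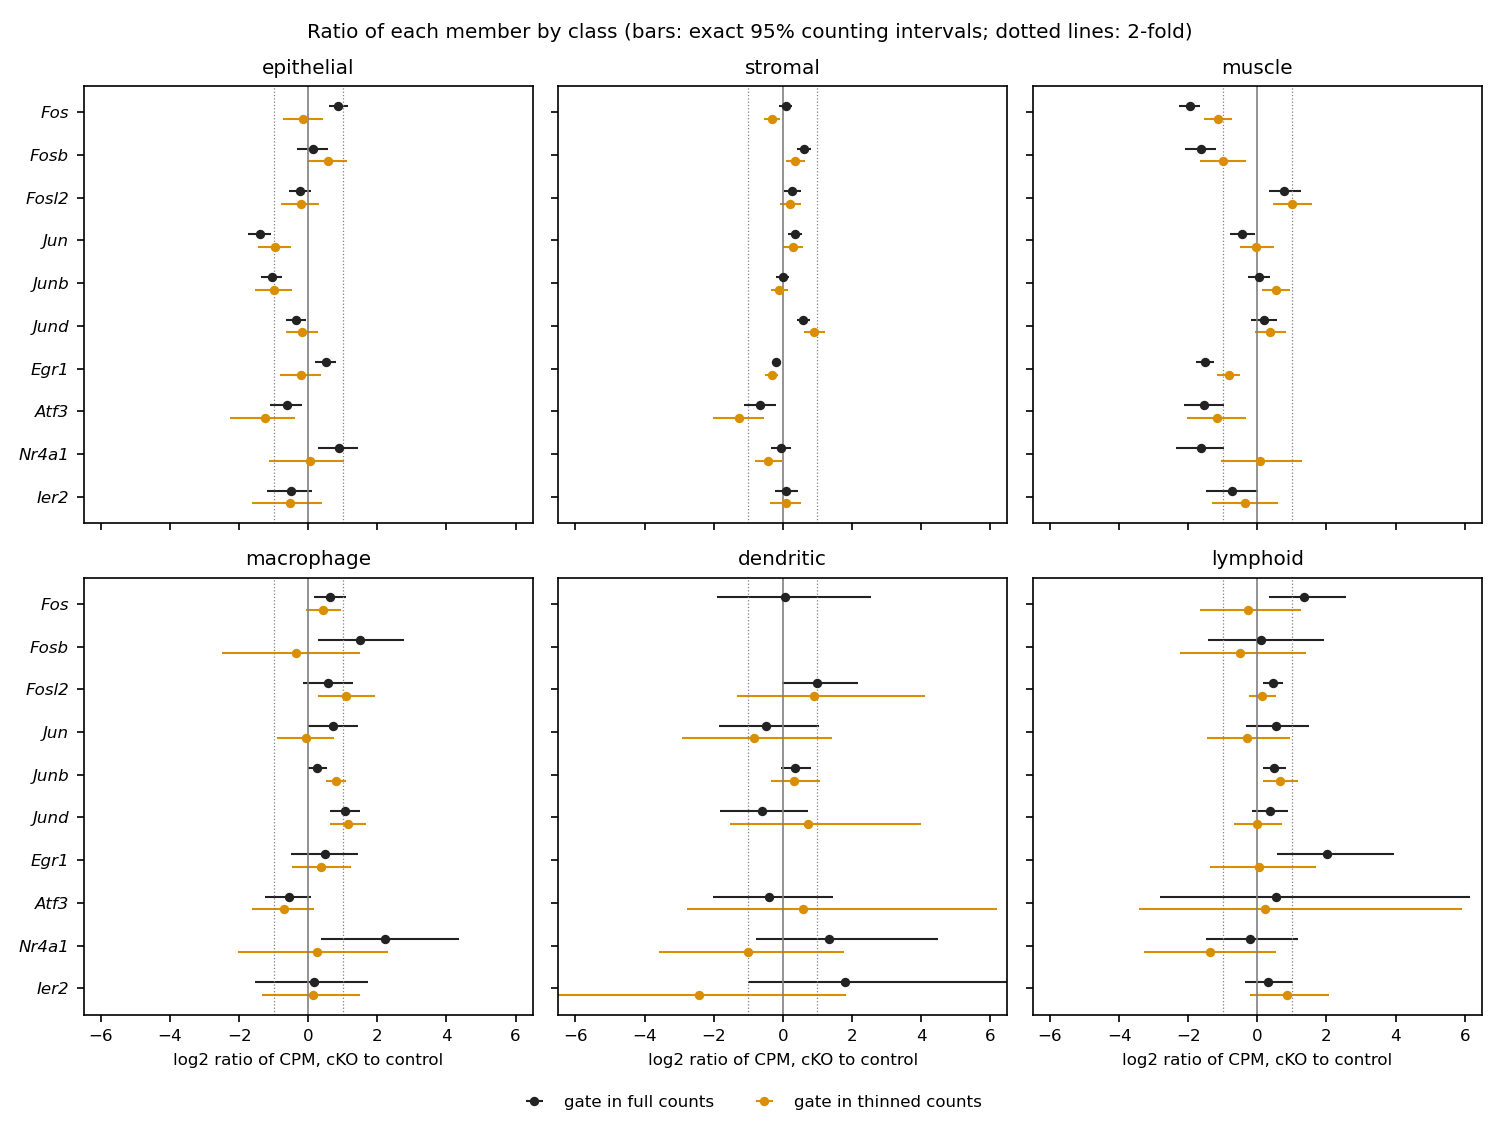
Log2 ratio of cKO to control for each member in 6 classes, with the class gene read in the full counts of a cell (black) or in its thinned counts (orange); bars are exact 95% counting intervals, dotted lines mark 2-fold, and a few bars of dendritic cells run past the axis. In muscle cells 5 members lie left of the 2-fold line in black and 2 in orange.

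The size of the muscle difference depended on how muscle cells were gated. A deep cell meets a gate of 1 UMI more easily than a shallow one, so the gate was also read in the thinned counts, an alternative chosen after the values were seen. That left 202 control and 347 cKO cells, in which 2 members were at least 2-fold lower, beside 3.43% of all genes lower and 8.69% higher, and the median log2 ratio of the members was -0.20. Fos then had 604 and 274 CPM, a log2 ratio of -1.14 (-1.54 to -0.74), and Atf3 144 and 63.4 CPM, -1.18 (-2.05 to -0.33). Egr1 had 807 and 452 CPM, -0.83 (-1.16 to -0.51), and Fosb 218 and 110 CPM, -0.99 (-1.66 to -0.33). These 4 stayed lower beyond counting error, at a smaller size. Of them, Fosb and Atf3 lay below their levels outside cells, given further below, in both libraries. Nr4a1, with 54.5 and 57.6 CPM (0.082, -1.05 to 1.29), no longer differed, and Junb (0.53, 0.14 to 0.94) and Fosl2 (1.01, 0.46 to 1.59) were higher in cKO. Calls past 2-fold carry a pseudocount of 0.5 UMI, with which Fosl2 stayed just inside 2-fold.

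Splitting the muscle cells by depth showed where the members lay. The 30 control cells of 5000 UMIs or more had 5233 CPM of Fos and 4867 CPM of Egr1, against 486 and 703 CPM in 74 such cKO cells. The log2 ratios were -3.43 (-3.99 to -2.90) and -2.79 (-3.28 to -2.33). These deep cells carried little muscle RNA: the 6 muscle markers Acta2, Myh11, Tagln, Cnn1, Des and Myl9 summed to 4600 CPM in control and 6608 CPM in cKO. In cells of 1000 to under 2000 UMIs the same sum was 19914 and 17943 CPM. There the 140 control and 244 cKO cells held 414 and 123 CPM of Fos (-1.75, -2.44 to -1.09), 193 and 61.5 CPM of Fosb (-1.65, -2.67 to -0.69), 707 and 258 CPM of Egr1 (-1.45, -1.93 to -0.98), and 171 and 36.9 CPM of Atf3 (-2.22, -3.51 to -1.06). The interval of Nr4a1, on 8 and 5 UMIs, spanned 0 there. The 70 control and 123 cKO cells of 2000 to under 5000 UMIs were also rich in muscle markers, at 18529 and 15642 CPM, and the differences were smaller. Fos had 786 and 504 CPM (-0.64, -1.19 to -0.090), Fosb 500 and 203 CPM (-1.30, -2.10 to -0.52) and Egr1 1029 and 732 CPM (-0.49, -0.95 to -0.024). Atf3 (-0.72) and Nr4a1 (0.45) had intervals that spanned 0. Fos, Fosb and Egr1 were thus lower in cKO at all 3 depths, by unequal amounts. In cells of 1000 to under 2000 UMIs, Fos, Fosb and Atf3 lay below their levels outside cells, given further below, in both libraries. From the shallowest to the deepest cells, stromal markers summed to 2321 and 1373, 1457 and 1447, and 767 and 2351 CPM. The class gene Actg2 had 2957 and 1709, 2957 and 1366, and 300 and 459 CPM. Their part in the member ratios was not tested.

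**Figure D3:**
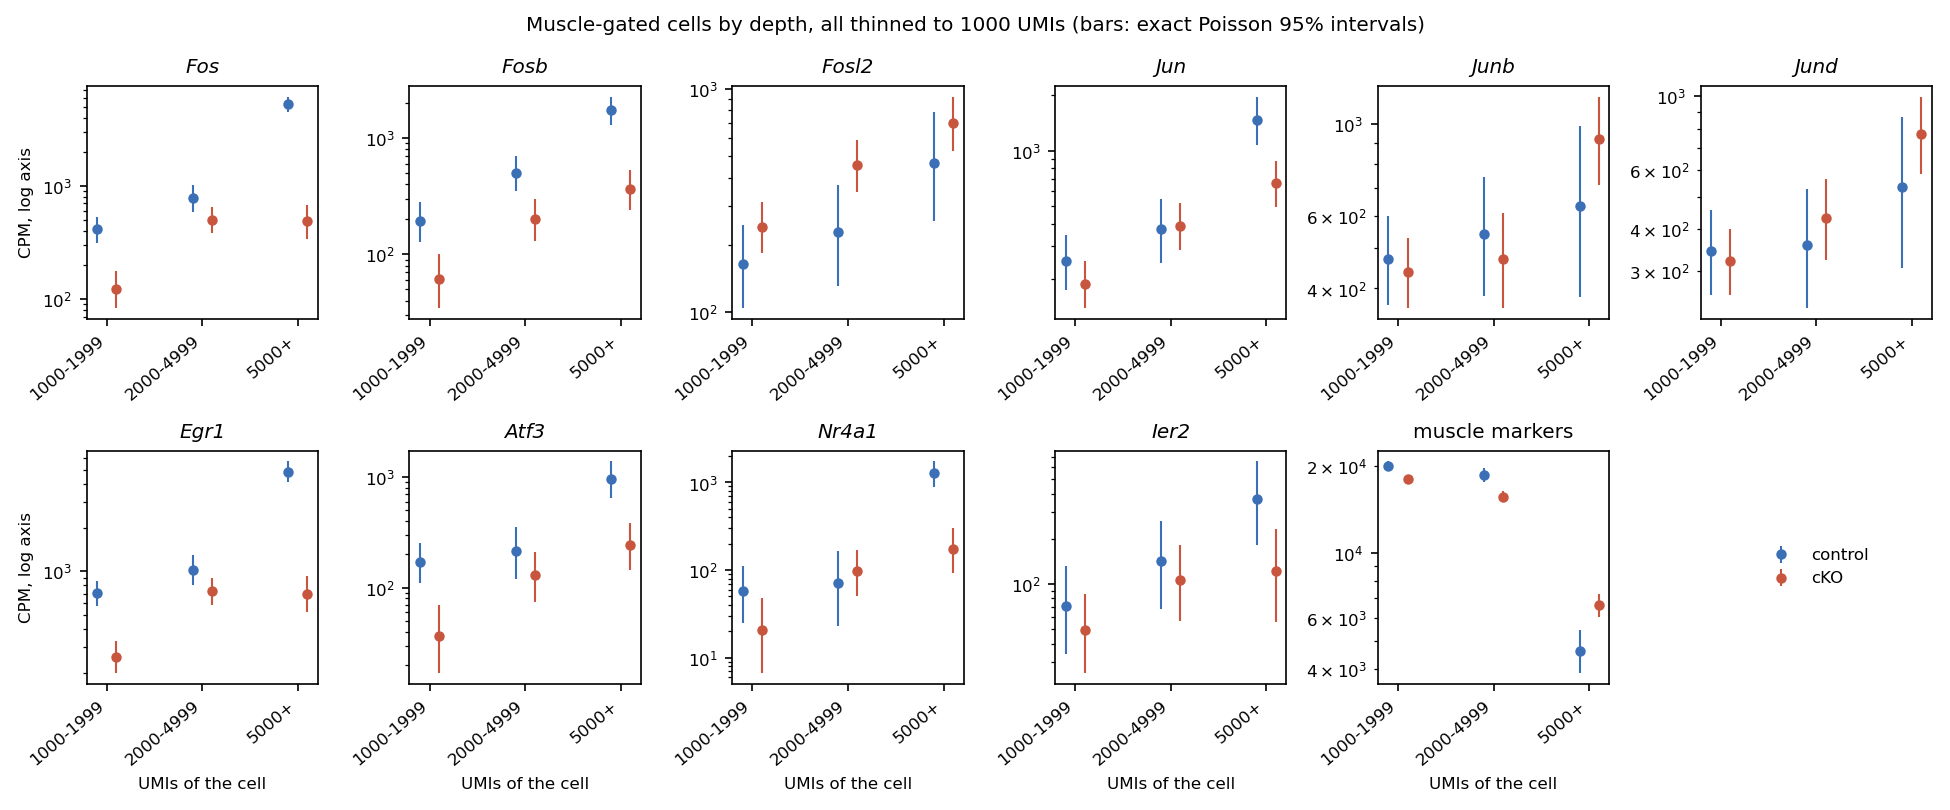
Level of each member and of the summed muscle markers in muscle-gated cells, split by the depth of the cell before thinning, on log axes in CPM; bars are exact Poisson 95% intervals. Fos and Egr1 are higher in control (blue) than in cKO (red) at each depth and reach 5233 and 4867 CPM in the 30 deep control cells, where the muscle markers are lowest.

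Few cells carried much of the signal of Fos, Egr1 and Nr4a1. In control muscle cells, 7 of 240 cells held 50% of the Fos UMIs, 7 held 50% of the Egr1 UMIs and 3 held 50% of the Nr4a1 UMIs. In cKO these numbers were 10, 13 and 7 of 441 cells. Fosl2, Jun, Junb and Jund were spread over more cells, with 50% in 16, 14, 12 and 17 control and 33, 25, 34 and 36 cKO cells. The 24 control cells with the most member UMIs held 69.0% of all member UMIs of their class, and the 45 such cells of cKO held 45.8%. A Fos UMI was present in 49 of 240 control and 53 of 441 cKO muscle cells, or 20.4% and 12.02%, at the same thinned depth against 3.92% and 8.73% of lymphoid cells. The shares were 31.7% and 36.3% in epithelial, 21.3% and 31.2% in macrophage, and 19.6% and 25.3% in stromal cells, so the muscle share was not high among the classes.

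Among markers of other cells in the muscle class, the stromal list had the highest sum. The 7 stromal markers summed to 1875 CPM in the control and 1558 CPM in the cKO cells, with Pdgfrb at 0 in control, and 62.5% and 53.3% of cells held 1 of their UMIs. The 8 epithelial markers summed to 333 and 29.5 CPM, the 6 macrophage markers to 4.17 and 15.9 CPM, the 7 lymphoid markers to 25.0 and 156 CPM, the 2 pericyte markers to 33.3 and 36.3 CPM and the 2 red cell markers to 95.8 and 678 CPM. Their part in the member ratios was not tested. The share of mitochondrial UMIs had a median of 3.16% in control and 1.85% in cKO. Within cells of under 5% mitochondrial UMIs, the 10 members summed to 5567 CPM in control and 2809 CPM in cKO, and within cells of 10 to 20% they summed to 4645 and 2861 CPM.

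In epithelial cells, the class at which the deletion is aimed, the members split. There were 954 control and 135 cKO cells. Of the 10 members, 2 were at least 2-fold lower in cKO and none at least 2-fold higher, where 12.6% of 3414 genes were lower and 26.8% higher. The median log2 ratio was -0.28 over the members and 0.39 over all those genes, and centring on the latter put 53.7% of all calls on the lower side in place of 31.9%.

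Jun, the main AP-1 partner of Fos, had 1487 CPM (1411 to 1567) in control and 563 CPM (444 to 705) in cKO epithelial cells, 2.64-fold lower (2.10 to 3.37). Junb, a Jun relative that often restrains Jun activity, had 1430 CPM (1355 to 1508) and 689 CPM (556 to 844), 2.08-fold lower (1.68 to 2.59). Both intervals were apart. Each was lower in cKO under all 17 alternatives, but the size varied, with log2 ratios of Jun from -2.32 to -0.29 and of Junb from -1.44 to -0.66. In the expected thinned counts they were -1.035 and -0.84, so that only Jun was past 2-fold, and in a second random draw -0.99 and -1.01, so that only Junb was. Without thinning Junb alone was past 2-fold, and with thinning to 500 or to 2000 UMIs neither was, while Nr4a1 was 2-fold higher (1.14 and 1.09). Neither was past 2-fold when cells with high doublet scores were left out, when cells with genes of several classes were allowed, or with a minimum of 1000 genes. Centring put 3 members (Jun, Junb and Atf3) past 2-fold lower, and asking for a keratin UMI beside Epcam put Egr1 and Nr4a1 past 2-fold higher. The share of mitochondrial UMIs also differed, with 19.3% of control and 2.96% of cKO epithelial cells at 10 to 20%. Within cells of under 5%, 527 of control and 102 of cKO, Jun had 1243 and 696 CPM and Junb 1241 and 784 CPM, neither past 2-fold. The 10 members summed to 6321 and 6265 CPM there. Within cells of 5 to 10%, 243 of control and 29 of cKO, Jun had 1477 and 172 CPM and Junb 1823 and 310 CPM. The 10 members summed to 7770 and 3241 CPM in those cells. Only 4 cKO cells lay at 10 to 20%. Over the whole class, Atf3 had 503 and 326 CPM, a log2 ratio of -0.63 (-1.11 to -0.18). Jund, the more steadily expressed Jun gene, had 1019 and 800 CPM, -0.35 (-0.65 to -0.061). Fos had 550 CPM (504 to 600) in control and 1007 CPM (845 to 1192) in cKO, which was higher by 0.87 (0.59 to 1.15). That draw gave an unusually high cKO value: the expected thinned level was 569 CPM in control against 738 CPM in cKO, for a log2 ratio of 0.38, and the ratio without thinning was 0.15. Nr4a1, at 132 and 244 CPM, and Egr1, at 538 and 763 CPM, were also higher in cKO beyond counting error, by 0.81 and 0.58 in the expected counts. The ratios of Fosb, Fosl2 and Ier2 spanned 1. Fos and Jun, which form AP-1 together, stood on opposite sides by this gate.

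The gated epithelial cells of cKO were not all epithelial by their markers. The 8 epithelial markers summed to 11527 CPM in control and 5607 CPM in cKO, and 97.5% and 62.2% of cells held 1 of their UMIs. Stromal markers summed to 318 and 3489 CPM, with a UMI in 33.3% of cKO cells, and lymphoid markers to 28.3 and 926 CPM, with a UMI in 24.4%. Of the latter sum 889 CPM were Il2rb alone, and Cd3d, Cd3g, Klrb1c and Cd2 were at 0. The B or plasma cell markers Cd79a and Jchain summed to 2.10 and 1333 CPM, nearly all of it Jchain and in 2.22% of cKO cells, and the 2 mesothelial markers to 12.6 and 274 CPM. Their part in the member ratios was not tested. With the gate read in thinned counts, 478 control and 51 cKO cells remained, and the direction of Fos and Egr1 turned, to log2 ratios of -0.14 (-0.74 to 0.41) and -0.20 (-0.82 to 0.36). Nr4a1 (0.041, -1.14 to 1.04) and Jund (-0.17, -0.64 to 0.27) no longer differed beyond their intervals. Jun, with 1483 and 765 CPM, Junb, with 1243 and 627 CPM, and Atf3, with 508 and 216 CPM, were lower by that gate too, with log2 ratios of -0.96 (-1.46 to -0.49), -0.99 (-1.55 to -0.47) and -1.24 (-2.26 to -0.37). Only Atf3 was past 2-fold there, beside 11.7% of all genes lower and 31.0% higher.

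Stromal cells, the largest class of cKO with 613 control and 1453 cKO cells, showed small differences. No member was 2-fold lower or higher, where 1.59% of 3519 genes were lower and 2.16% higher. The median log2 ratio was 0.091 for the members and 0.0045 for all those genes. Fosb had 405 CPM (356 to 458) in control against 618 CPM (578 to 660) in cKO, for a log2 ratio of 0.61 (0.41 to 0.82). Jund had 447 CPM (396 to 503) and 674 CPM (632 to 717), 0.59 (0.40 to 0.79). Jun, at 431 and 549 CPM, and Fosl2, at 320 and 386 CPM, were also higher in cKO beyond counting error. Egr1, at 1207 and 1052 CPM, and Atf3, at 108 and 68.1 CPM, were lower, the latter by 0.66 on the log2 scale (interval from -1.12 to -0.19). Fos (528 and 561 CPM), Junb (591 and 589 CPM), Nr4a1 (228 and 219 CPM) and Ier2 (171 and 184 CPM) had ratios that spanned 1. With the gate read in thinned counts Atf3 was past 2-fold, at 101 and 41.7 CPM, beside 2.51% of all genes lower and 2.45% higher. By either gate Atf3 lay below its level outside cells, which was 251 CPM in control and 85.8 CPM in cKO. By that gate Fos, at 645 and 520 CPM, and Nr4a1, at 262 and 196 CPM (-0.42, -0.81 to -0.024), were also lower in cKO beyond counting error, and the interval of Fosl2 spanned 0 (0.22, -0.093 to 0.54).

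In macrophage cells, 225 of control and 109 of cKO, 9 of the 10 members had a ratio above 1, beside 57.1% of all genes. Of the 10, 3 were at least 2-fold higher and none at least 2-fold lower, where 11.8% of 3102 genes were higher and 5.00% lower. The median log2 ratio was 0.61 for the members, with medians of the interval bounds at -0.0029 and 1.43, and 0.10 for all those genes, and centring left 2 members past 2-fold and moved the lower share of all calls from 29.7% to 41.8%. Jund had 396 CPM (318 to 487) in control against 826 CPM (664 to 1015) in cKO, for a log2 ratio of 1.06 (0.62 to 1.50). Fosb, at 48.9 and 138 CPM, and Nr4a1, at 17.8 and 82.6 CPM, were higher by 1.49 (0.27 to 2.76) and 2.22 (0.37 to 4.37). These last values rest on 11 and 15 UMIs of Fosb and on 4 and 9 UMIs of Nr4a1, and both genes lay below the level outside cells in both libraries. The same 3 members were past 2-fold in the expected thinned counts, while in a second draw Ier2 (1.05) took the place of Fosb (0.50). Fos, at 409 and 633 CPM, was higher by 0.63 (0.16 to 1.10), and Atf3, at 364 and 248 CPM, was the only member on the lower side, with an interval that spanned 1.

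Some heat shock genes also differed between the macrophage cells of the 2 libraries, and the member values moved with the gate. Hspa1a and Hspa1b, stress-induced chaperone genes so alike that reads may be shared between them, had 276 and 836 CPM in control and 2073 and 4349 CPM in cKO macrophage cells. The red cell markers Hba-a1 and Hbb-bs summed to 4.44 and 761 CPM, the latter in 0.917% of cKO cells, and the mast cell markers Cpa3 and Mcpt4 to 8.89 and 294 CPM, the latter in 2.75%. Their part was not tested. With the gate read in thinned counts (160 and 90 cells), Jund (1.14, 0.62 to 1.67), Junb (0.81, 0.51 to 1.10) and Fosl2 (1.09, 0.28 to 1.92) were higher beyond counting error. Of these, Jund and Fosl2 were past 2-fold, beside 12.7% of all genes higher and 7.56% lower. Fosb and Nr4a1, at log2 ratios of -0.34 and 0.25, then differed by less than their intervals.

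In lymphoid cells, 153 of control and 424 of cKO, the level of Fosl2 was above that of the other 5 classes in both libraries, within overlapping intervals with epithelial cells in control. It had 830 CPM (692 to 988) in control against 1139 CPM (1040 to 1245) in cKO, for a log2 ratio of 0.46 (0.17 to 0.75), which was 0.15 (-0.23 to 0.53) with the gate read in thinned counts. Of the 10 members, 2 were at least 2-fold higher in cKO and none at least 2-fold lower, where 4.59% of 3856 genes were higher and 3.60% lower. Centring moved the lower share of all calls from 44.0% to 56.4% and left the 2 members past 2-fold. Egr1 had 4 UMIs in control and 45 in cKO, 26.1 and 106 CPM, a log2 ratio of 2.02 (0.57 to 3.96). Fos had 9 and 64 UMIs, 58.8 and 151 CPM, 1.36 (0.35 to 2.55). In the expected thinned counts no member was past 2-fold, with 0.92 for Egr1 and 0.50 for Fos, and in a second draw Ier2 (1.365) was the only one. With the gate read in thinned counts (80 and 206 cells) neither differed beyond its interval, and the log2 ratio was 0.050 (-1.38 to 1.69) for Egr1 and -0.27 (-1.65 to 1.27) for Fos. By that gate no member was 2-fold higher and Nr4a1 was 2-fold lower on 6 and 6 UMIs, beside 6.91% of all genes higher and 6.76% lower. Junb was higher by both gates, with 641 and 899 CPM (0.49, 0.16 to 0.82) and with 550 and 869 CPM (0.66, 0.18 to 1.17).

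Dendritic cells were too few for most members: 42 control and 134 cKO cells. Junb was the most readily counted, at 1357 CPM (1028 to 1758) in control and 1739 CPM (1523 to 1977) in cKO, with overlapping intervals. Egr1 had 0 UMIs in control, which allows up to 71.4 CPM, and 16 UMIs in cKO, and Fosb had 0 and 7 UMIs. Those zeros belong to the draw: in the expected thinned counts Egr1 stood at 66.1 and 122 CPM and Fosb at 18.9 and 70.0 CPM, and before thinning Egr1 stood at 106 and 124 CPM. Of the 10 members, 4 were at least 2-fold higher by the fitted ratio, of which Fosb lay below 50 CPM on average, and none was lower, where 11.4% of 2991 genes were higher and 15.6% lower. For 9 of the 10 the interval of the ratio spanned 1, and in the expected thinned counts only Fosb was past 2-fold. With the gate read in thinned counts 16 control and 43 cKO cells remained, of which the control cells held no UMI of Fos, Fosb or Egr1. By the fitted ratio 3 members were then 2-fold higher and 2 lower, beside 13.4% of all genes higher and 23.3% lower.

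In some classes at least 5 members occurred together in a cell more often than their single shares would give. These were epithelial, stromal and muscle cells of both libraries, and macrophage and lymphoid cells of cKO. Single pairs varied. Among pairs found in at least 10 cells, the observed share was 1.31 to 6.05 times the product of single shares in control muscle cells. It was 0.89 to 2.29 times in cKO stromal and 0.77 to 1.41 times in cKO lymphoid cells. In control muscle cells 13.3% (9.30 to 18.3) held at least 5 of the 10 members after thinning, where independent shares would give 2.06%. In cKO muscle cells 6.12% (4.07 to 8.78) did, where independent shares would give 0.913%. Epithelial cells had the highest shares, 31.3% (28.4 to 34.4) in control and 23.7% (16.8 to 31.8) in cKO, where independence would give 26.6% and 12.5%. In stromal cells the order of the libraries was the other way, with 10.9% (8.57 to 13.7) in control and 16.2% (14.4 to 18.2) in cKO, where independence would give 4.30% and 8.33%. In macrophage cells 1.78% (0.486 to 4.49) and 8.26% (3.85 to 15.1) held 5 or more, where independence would give 1.05% and 3.20%, and in lymphoid cells 1.31% (0.159 to 4.64) and 2.59% (1.30 to 4.59), where it would give 0.222% and 0.819%. The intervals of control macrophage and control lymphoid cells include the share under independence. So do those of dendritic cells, in which 0 of 42 control and 1.49% (0.181 to 5.29) of cKO cells held 5 or more. Cells of 1 library share their source, so these shares describe the 2 libraries and not their genotypes.

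**Figure D4:**
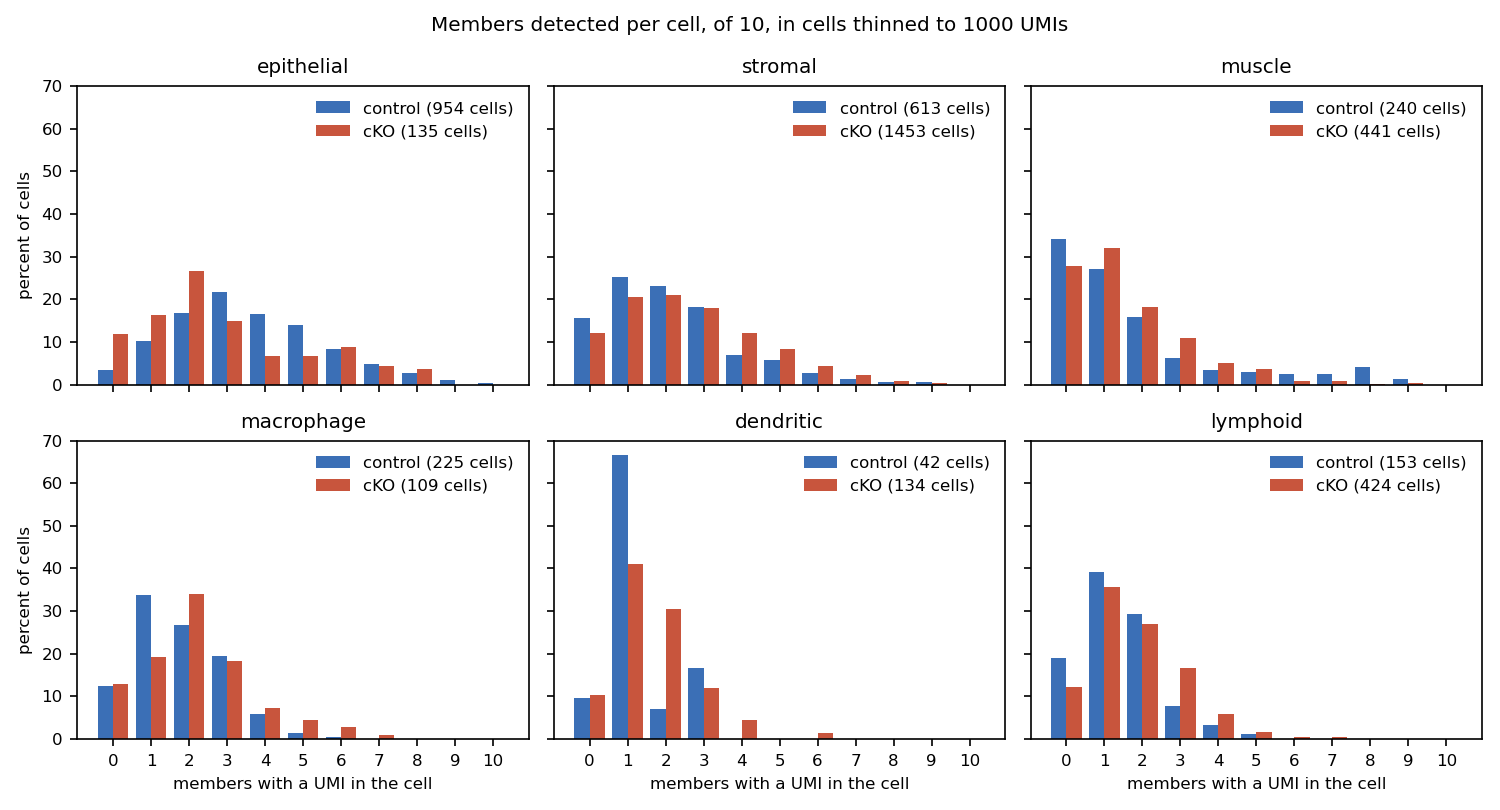
Percent of cells in which 0 to 10 of the members had a UMI, after thinning every cell to 1000 UMIs, in 6 classes of control (blue) and cKO (red). Control muscle cells have a tail of cells with many members, 13.3% with at least 5 against 6.12% in cKO.

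Across the 12 levels of 6 classes and 2 libraries, the members fell into unlike patterns, given here as Pearson correlations of log2(CPM + 10) without a test. Fosb and Egr1 followed each other most closely, at 0.97, and both followed Fos, at 0.84 and 0.83. Junb ran against Egr1 (-0.52) and Fosb (-0.49), and Fosl2 against Atf3 (-0.52). Among 3757 genes, those outside the members most like the members' mean were Ccnb1ip1 (0.92), Nupr1 (0.92), Zfas1 (0.91), F3 (0.90) and Anxa1 (0.88). Nupr1 encodes a small stress-induced nuclear protein, F3 tissue factor, and Anxa1 annexin A1. The 12 levels share 2 libraries and are not independent.

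Other genes of the immediate early response had a median near that of all genes in muscle cells. Of 40 listed genes, including feedback genes of the Dusp and Zfp36 families, 30 reached 50 CPM on average in muscle cells. Of these 30, none was at least 2-fold lower in cKO and 4 were higher (Zfp36l1, Gadd45a, Id1 and Tnfaip3), beside 2.82% of all genes lower and 6.37% higher. Genes behind such small counts are named after their values were seen. The median log2 ratio of the 30 was 0.16, beside 0.17 for all genes. The 3 most abundant of the list, chosen by level, were Btg1, an antiproliferative gene, at 467 CPM in control and 692 CPM in cKO, Zfp36l1, which destabilises AU-rich mRNAs, at 1075 and 2240 CPM, and Klf6, a zinc finger factor, at 250 and 342 CPM. Arc, a neuronal activity gene that lay below 50 CPM on average, had 13 and 4 UMIs, and its ratio interval excluded 1. In epithelial cells 36 of the 40 reached the level, of which 4 were at least 2-fold lower (Arc, Btg2, Dusp6 and Gadd45a) and 7 higher, beside 12.6% of all genes lower and 26.8% higher, with a median of -0.10. Btg2, a p53-induced antiproliferative gene, had 710 and 289 CPM there, and Arc 269 and 29.6 CPM. In macrophage cells 27 reached it, of which none was lower and 2 were higher (Klf2 and Dusp2), beside 5.00% and 11.8% of all genes, with a median of 0.37.

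Heat shock genes, which also respond to handling of tissue, were not lower in cKO muscle cells as a list. None of 13 was past 2-fold there, with a median log2 ratio of 0.26. Their 3 most abundant genes, the cytosolic chaperones Hsp90ab1, Hsp90aa1 and Hspa8, had 1871, 1421 and 1383 CPM in control and 2299, 1776 and 1658 CPM in cKO muscle cells. In epithelial cells 4 of the 13 were at least 2-fold higher (Hspa1a, Hspd1, Hspb8 and Bag3), beside 26.8% of all genes, with a median of 0.96. In macrophage cells 11 reached the level and 3 were higher (Hspa1a, Hspa1b and Hspd1), beside 11.8% of all genes, with a median of 0.77. In lymphoid cells 9 reached it, with a median of -0.43, and Hspa8 had 1235 and 726 CPM. Of 19 upstream factors and kinases, 9 reached the level in muscle cells and none of them was past 2-fold. In epithelial cells 13 reached it, of which 2 were lower and 3 higher, beside 12.6% and 26.8% of all genes. The 2 lower ones were Srf, with 127 and 2 UMIs (133 and 14.8 CPM), and Elk3, a partner of SRF, with 123 and 5 UMIs. Crem, a factor of the cAMP pathway and the most abundant of the list, had 38.8 and 333 CPM there. Mef2a, a factor of muscle genes, had 158 and 268 CPM in muscle cells.

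RNA outside cells also carried the members and differed between the libraries. In barcodes of at most 100 UMIs, Jun had 624 CPM in control against 308 CPM in cKO, Atf3 251 and 85.8 CPM, and Fos 526 and 403 CPM. Fosb, at 233 and 365 CPM, Egr1, at 445 and 567 CPM, Nr4a1, at 143 and 193 CPM, and Fosl2, at 444 and 509 CPM, were higher in cKO. Levels in lymphoid cells lay below the cell-free level of the same library for 7 members in both libraries, all but Fosl2, Junb and Ier2. In macrophage cells Fosb, Fosl2, Jun, Egr1, Nr4a1 and Ier2 did so in both libraries. In muscle cells Fos, Fosb, Egr1 and Nr4a1 lay above the cell-free level in control and below it in cKO. The cKO levels outside cells were 403, 365, 567 and 193 CPM. Fosl2, Junb, Jund and Ier2 lay below it in both libraries in muscle cells, as did Fosl2, Junb and Atf3 in stromal cells. In control muscle cells gated in thinned counts, Fosb (218 CPM), Nr4a1 (54.5 CPM) and Atf3 (144 CPM) lay below the cell-free level too. By that gate Atf3 did so in cKO as well, at 63.4 CPM. Wherever a level lies under the cell-free one, its difference is a difference of counts only and is not read as expression by the class. With 10% of the cell-free profile of each library subtracted from its class levels, the same 5 members were past 2-fold in muscle cells, with a median of -1.19, and Jun and Junb in epithelial cells, at log2 ratios of -1.42 and -1.14.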

How the data were processed

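The deposited values are raw counts of UMIs per gene and barcode, made by the authors with Cell Ranger, version 6.1.1 per the submitters' processing notes and version 4 per the file headers, on mm10 per the submitters' processing notes. Aligner settings and annotation are not given in the sources used here. The total counts were 45035801 UMIs in control and 57145553 in cKO.

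The matrices were read with Python 3.11.15, NumPy 2.4.6, SciPy 1.17.1, pandas 2.3.3 and scanpy 1.11.5, and figures were drawn with matplotlib 3.10.9. Cells (at least 500 genes, at most 20% mitochondrial UMIs) were gated by class genes and thinned without replacement to 1000 UMIs. This left out 71 control and 109 cKO gated cells that were shallower. No doublet caller was used in the reported values, and leaving out cells with a Scrublet score over 0.25 (42 and 60 cells) was an alternative. CPM have exact Poisson intervals, shares exact Clopper-Pearson intervals and ratios exact conditional binomial intervals, all at 95%. All of these cover counting error only. For a gene at 0, up to 3 counts were allowed for.

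All members were compared in every class, and other genes where their mean CPM over both libraries was at least 50. A call was a ratio of at least 2-fold after adding 0.5 UMI, and there was no test, since each group is 1 library. Medians are over all 10 members. The genes named are the members, the 3 most abundant genes of each of 3 lists (1 is not reported here), the 5 genes most like the members' mean, the class genes and markers, and list genes behind small counts. The members and lists were chosen with earlier results of these data known. Promoter sequences are RefSeq's for GRCm38.p6, without chromosome 18, and gene spans are GENCODE M21's. The counting code was tested on simulated data. Thinning depth, seed, gates, filters, doublets, cell-free RNA and centring were varied, with 4 alternatives added after the data were seen.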

Additional observations from a re-analysis of the deposited data

Results flagged for a closer look

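For 7 members the log2 ratio of cKO to control lay on opposite sides of 0 in 2 classes, beyond the counting interval of each. With 1 library per group, these differences between classes were not tested. The share of all genes meeting the same rule was not computed, so the count of members has no baseline. Fos had a log2 ratio of -1.955 in muscle and 0.872 in epithelial cells, Fosb -1.645 in muscle and 0.611 in stromal cells, and Egr1 -1.507 in muscle and 2.02 in lymphoid cells. Nr4a1 had -1.643 in muscle and 2.22 in macrophage cells. The levels behind the upper values of Egr1 and Nr4a1 lay below the cell-free level in both libraries. The Jun family differed the same way around the epithelial class: Jun had -1.402 in epithelial and 0.349 in stromal cells, Junb -1.053 in epithelial and 0.488 in lymphoid cells, and Jund -0.349 in epithelial and 1.06 in macrophage cells. With class genes read in thinned counts, the intervals of the upper values of Fos, Egr1 and Nr4a1 and of the lower values of Nr4a1 and Jund included 0, so that Fosb, Jun and Junb kept both sides. In the expected thinned counts, which involve no random draw, the ratio of Fos in epithelial cells was 0.38 and that of Egr1 in lymphoid cells 0.92.

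Cells that held no class gene entered no comparison of classes. After thinning there were 1096 such cells in control and 1698 in cKO, and Fosl2 had 643 CPM (597 to 693) in control and 923 CPM (878 to 970) in cKO. Its cKO level in these cells lay above the control level with intervals apart. In the same cells 8 members were lower in cKO with intervals apart: Fos (923 and 512 CPM), Jun (969 and 372), Atf3 (324 and 105), Egr1 (1200 and 796), Fosb (460 and 327), Nr4a1 (274 and 179), Ier2 (306 and 177) and Jund (667 and 574). These cells are of mixed and unnamed types. No share over all genes was computed for them, so the count of 8 members has no baseline.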

How the results depend on the processing

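No paired analysis was possible because each group has 1 library, and for the same reason no replicate could be left out. All the alternatives set out at the start were run, and 4 were added after the data were seen: added keratin and Myh11 gates, cells of 1000 to under 5000 UMIs, the gate read in thinned counts, and expected thinned counts. The median log2 ratio of the members stayed below 0 in muscle cells under all 17 alternatives (-1.30 to -0.20) and above 0 in macrophage cells under all 16 (0.35 to 0.90). In muscle cells Fos (-2.25 to -1.10), Fosb (-1.97 to -0.65), Egr1 (-1.86 to -0.77) and Atf3 (-2.38 to -1.02) stayed below 0 under all 17, and Fosl2 stayed above it (0.23 to 0.99). In epithelial cells the median ran from -0.77 to 0.0041 and Fos from -0.60 to 0.96. The muscle median moved beyond its interval to -0.43 with a gate of 2 UMIs and to -0.20 with the gate read in thinned counts. The stromal median moved to 0.50 in cells of 2000 to 20000 UMIs. The epithelial median moved to -0.67 when centred on all genes and to -0.77 in cells of 1000 to under 5000 UMIs. The dendritic median moved to -1.585 in cells of 1000 to under 5000 UMIs, where 1 control and 3 cKO cells remained.

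Of the ratios past 2-fold, 8 changed sign under 1 or more alternatives, 4 of them in the dendritic class. Dendritic Ier2 went to -1.43 with thinning to 500 UMIs, -0.88 with a gate of 2 UMIs, -0.31 with a 10% mitochondrial limit, -0.16 in cells of 2000 to 20000 UMIs, -1.585 in cells of 1000 to under 5000 UMIs and -2.16 with the gate read in thinned counts. In cells of 1000 to under 5000 UMIs dendritic Fosb, Egr1 and Nr4a1 were at -1.585 too. With a gate of 2 UMIs dendritic Fosb was at -0.74 and Egr1 at -1.595, lymphoid Fos at -0.16 and lymphoid Egr1 at -0.024. With the gate read in thinned counts lymphoid Fos was at -0.32, lymphoid Egr1 at -0.0206, dendritic Nr4a1 at -1.06, muscle Nr4a1 at 0.053 and macrophage Fosb at -0.25. Dendritic Nr4a1 was at -0.39 with a minimum of 1000 genes. These ratios carry the pseudocount of 0.5 UMI, and the cause was not tested. In the dendritic, lymphoid and macrophage classes several members have under 20 UMIs in control, which limits the precision of their ratios.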

Other observations

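Barcodes above the mitochondrial limit, 283 in control and 46 in cKO, belong to no class above. The 283 control barcodes, thinned like the cells, held 1375 CPM of Jun (1241 to 1518), 958 CPM of Junb (847 to 1079) and 873 CPM of Jund (767 to 989). The 42 cKO barcodes deep enough to be thinned held 667 CPM of Jun (443 to 964), 429 CPM of Junb (254 to 677) and 738 CPM of Jund (502 to 1048). Fos was at 597 CPM (511 to 694) and 571 CPM (366 to 850), with overlapping intervals. Atf3 was at 332 CPM (268 to 406) in control and had 0 UMIs in cKO.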
